A study of Arabidopsis thaliana with 6 samples.

Results

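The cuticle of a leaf is a sheet of cutin, covered and filled with wax, that the epidermis makes and exports to its outer face. The 32 Arabidopsis thaliana genes described here are 3 genes of epidermal identity, 3 regulators of cuticle genes, 10 genes of cutin synthesis, 7 of fatty acid activation and elongation, 5 of wax synthesis and 4 of lipid export. They were chosen by name with the difference between wild-type leaf border and leaf centre already known, so that difference is given below as a description with no test. Of the 32, 30 passed the filter on low counts and SHN1 and MAH1 did not, out of 33602 gene models in the files and 21852 tested.

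RNA from young rosette leaves was sequenced in 6 libraries, which fall into 3 groups of 2. The libraries labelled FLV border are the white leaf border of flv mutants of the stock salk_139995, a T-DNA line. The WT border libraries are the green leaf border, and the WT centre libraries the leaf centre, of the wild type col0. The groups are called white border, green border and centre below. Plants were grown at 18 to 21 °C under light of at most 90 µE, and all 6 libraries carry the Boyes growth stage 1.13. Nothing in the labels says whether the 2 libraries of a group came from separate plants, so p-values measure the spread between these libraries, which may be technical. Total counts ran from 20448315 to 33214552 per library. Of the reads, 70.9% mapped in centre library 1 and 83.3% to 88.9% in the rest. Small nuclear and nucleolar RNA made up 17.1% of counts in centre library 1 and 2.16% to 9.92% in the rest.

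All levels are in CPM, counts relative to the TMM-scaled library size, TMM being edgeR's scaling to the bulk of genes. The scaling factors ran from 0.439 to 0.551 in the centre, from 1.14 to 1.22 in the green border and from 1.71 to 1.73 in the white border, so composition differed between the groups. The design text gives flv as a knockout allele of DOT4 (AT4G18750), which stood at 10.2 and 12.5 CPM in the libraries labelled FLV border, 0.516 and 1.81 CPM in the green border and 0.444 and 0.412 CPM in the centre. The mutant libraries had the higher counts of DOT4. White over green border was 3.29 ± 0.66 for DOT4 (SE, log2, adjusted p = 0.322, edgeR). The cause of the higher counts in a line labelled as a knockout was not tested, and the label could not be checked with this gene.

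As background, cutin is a polyester of hydroxylated fatty acids. LACS enzymes activate fatty acids with coenzyme A, CYP86A and CYP77 cytochrome P450 enzymes hydroxylate them, GPAT enzymes join them to glycerol and extracellular enzymes link the monomers. Wax starts from the same activated fatty acids, which the elongase complex (a KCS condensing enzyme, KCR1, and CER10) lengthens in the endoplasmic reticulum and which the CER1 and CER3 proteins turn into alkanes or CER4 and WSD1 into alcohols and esters. ABCG transporters and LTPG1 carry both products outward. ATML1 and PDF2 are homeodomain-leucine zipper factors that set epidermal identity, and they bind a DNA motif called the L1 box.

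The L1 box was looked for in the 500 bases before the RefSeq gene start, as TAAATGCA or TAAATGTA on either strand. It lay before 6 of the 32 genes (18.8%) and before 2405 of 27443 protein-coding genes (8.76%). The stretches are shown because they are the motif that the identity factors of this list bind, and capitals mark the motif. A match is a description of letters, not a bound site. The first set of lines has the motif as searched, and the last pair has it on the opposite strand of the gene.
PDF1: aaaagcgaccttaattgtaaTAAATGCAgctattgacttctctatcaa
CYP77B1: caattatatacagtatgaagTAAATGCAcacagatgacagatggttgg
KCS10: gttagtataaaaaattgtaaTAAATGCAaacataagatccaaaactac
ABCG11: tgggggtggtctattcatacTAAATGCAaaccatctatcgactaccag
ABCG11: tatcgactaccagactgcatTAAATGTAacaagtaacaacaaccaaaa
AT5G33370: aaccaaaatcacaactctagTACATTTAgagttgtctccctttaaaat
LTPG1: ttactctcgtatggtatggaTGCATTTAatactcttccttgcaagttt

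These stretches were read from the RefSeq genome, build TAIR10.1, 5′ to 3′ on the strand of each gene. That of PDF1 is chr2:17828074-17828121 (minus strand), and its motif ends 446 bases before the start. The stretch of CYP77B1 is chr1:3901883-3901930 (plus strand), and its motif ends 40 bases before the start. That of KCS10 is chr2:11173305-11173352 (minus strand), with 47 bases from motif to start. For ABCG11 they are chr1:6142300-6142347 and chr1:6142335-6142382 (plus strand), with 75 and 40 bases to the start, and these stretches overlap each other. The stretch of AT5G33370 is chr5:12604879-12604926 (minus strand), with 67 bases to the start, and that of LTPG1 is chr1:9740221-9740268 (plus strand), with 260 bases to the start. The letters searched were not found in this window of ATML1 or PDF2.

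Per kilobase of gene length, the levels in the green border ran from well under 1 to about 80 CPM per kb. LTPG1 led with 81.5 ± 21.3 CPM per kb (SD, n = 2), followed by KCS10 with 80.3 ± 17.8, and these neighbours did not differ beyond their spread. In the centre the order was another one. KCS6 led there with 90.2 ± 20.7 CPM per kb, LTPG1 had 87.1 ± 0.909 and KCS1 47.9 ± 0.155. KCS8, high in both borders (42.8 ± 10.8 in the white border and 35.5 ± 1.02 in the green border), had 1.59 ± 0.618 CPM per kb in the centre. CER4, which makes primary alcohols of wax, was low throughout, at 0.339 CPM per kb in the white border, 0.189 in the green border and 1.44 in the centre.

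**Figure D1:**
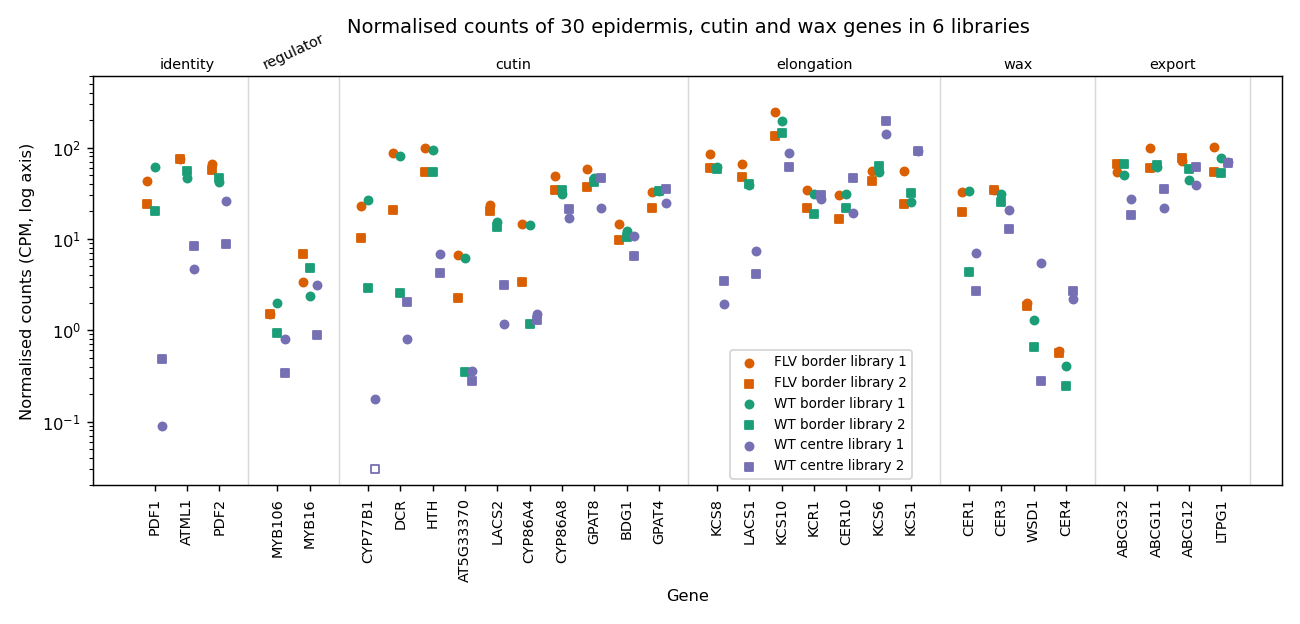
CPM of the 30 tested genes on a log axis, grouped by role, with 1 point per library (circles for library 1, squares for library 2). The open square of CYP77B1 stands for a count of 0 and is placed at the foot of the axis. The border points of a gene lie close together for most genes, while the WT centre points lie lower for the identity genes and for CYP77B1, HTH and KCS8, and higher for KCS1, KCS6 and CER4.

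The white border of the mutant was compared with the green border of the wild type to ask whether the mutant border differed in these genes at the same leaf position. None of the 30 genes passed an adjusted p of 0.05 in edgeR's quasi-likelihood test, against a background of 0.0595% of all genes tested (13 genes). The smallest adjusted p from edgeR among them was 0.99988. None of the 30 had an unadjusted p under 0.05 either, where 5.53% of all genes did. DESeq2 and limma-voom also called 0 of the 30. Of all genes, DESeq2 called 120 higher and 74 lower, and limma-voom 13 higher and 2 lower. The log2 fold changes ran from -0.30 (GPAT4) to 0.98 (WSD1), with a median of 0.27, where the median of all genes was 0.02. In 26 of 30 genes the fold change was positive (51.6% of all genes).

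This result bounds the difference only loosely. Standard errors ran from 0.43 to 1.19 on the log2 scale, and the 95% interval reached above a doubling (log2 of 1) in 28 of 30 genes and below a halving (log2 of -1) in 15. The libraries of the 2 groups did not overlap in 10 of the 30, with the white border higher in 9 (background 19.3%) and lower in 1, GPAT4 (background 18.7%). With 2 libraries against 2, an exact permutation test of 1 gene cannot go below p = 0.333, so single genes rest on the spread shared across genes. In bulk tissue, fewer cells of a type and less RNA per cell cannot be told apart.

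**Figure D2:**
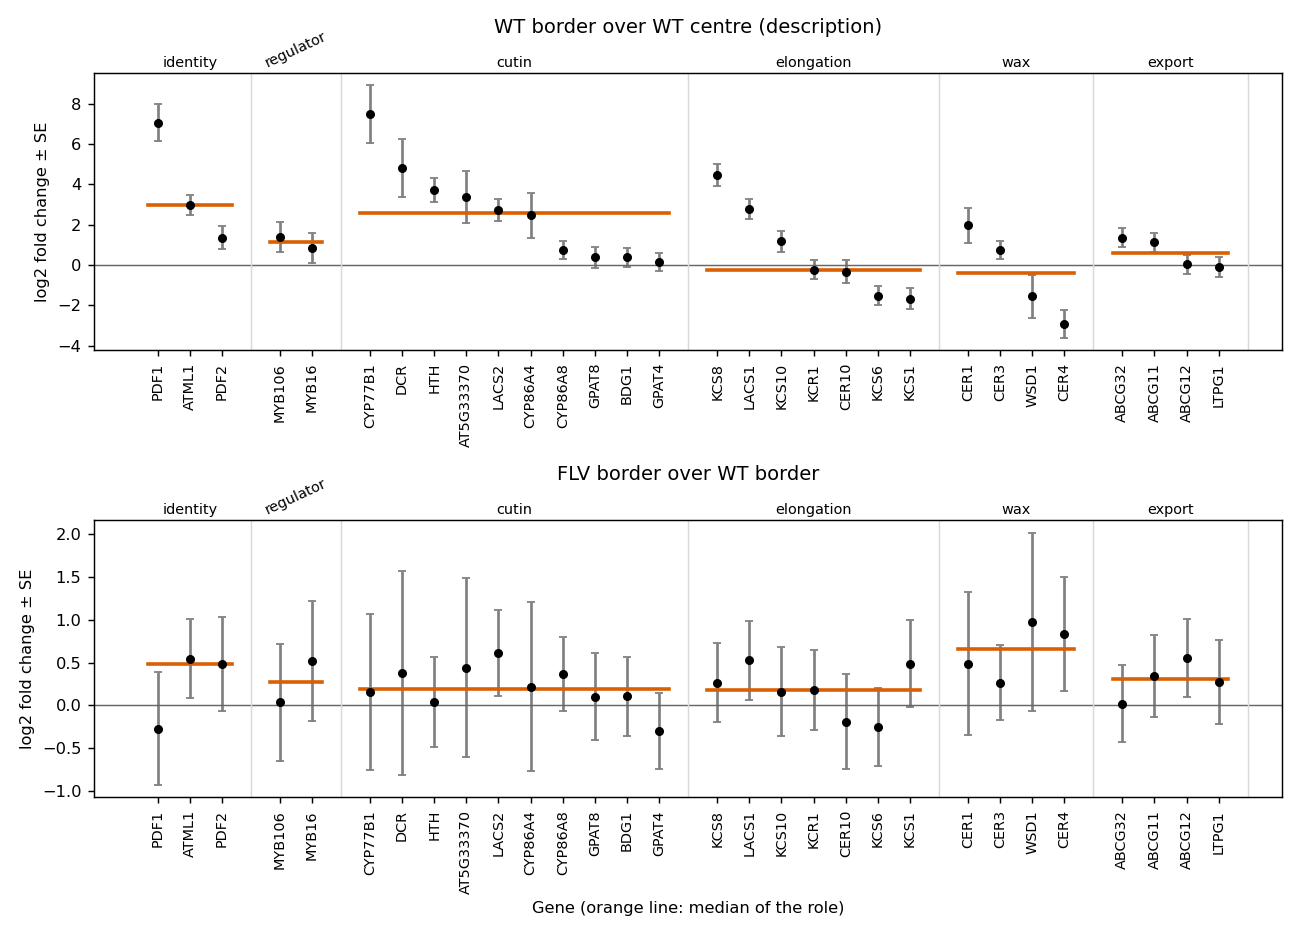
Log2 fold change of each gene, grouped by role, with bars of 1 standard error (edgeR) and an orange line at the median of the role, in WT border over WT centre (upper panel) and FLV border over WT border (lower panel, on a narrower axis). WT border over WT centre runs from -2.90 for CER4 to 7.47 for CYP77B1, while FLV border over WT border stays between -0.30 and 0.98.

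Among the identity genes, ATML1 (AT4G21750) had 74.8 and 74.9 CPM in the white border, 46.6 and 56.0 in the green border, and 4.62 and 8.31 in the centre. The 3 groups did not overlap. White over green border was 0.54 ± 0.46 (SE, log2) with a 95% interval of -0.49 to 1.58, and green border over centre was 2.98 ± 0.50. PDF2 (AT4G04890), the close homologue of ATML1, had 65.8 and 57.5 CPM in the white border, 41.5 and 46.7 in the green border and 25.7 and 8.72 in the centre, again with no overlap between groups. Its fold changes were 0.48 ± 0.55 and 1.36 ± 0.56, and the second was 2.39 without centre library 1 and 0.87 without centre library 2.

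PDF1 (AT2G42840), a proline-rich protein of the outer cell layer whose promoter holds the L1 box shown above, had 43.3 and 23.8 CPM in the white border, 60.9 and 19.9 in the green border and 0.0888 and 0.481 in the centre. The borders overlapped, and the centre libraries, with 1 and 7 counts, were far below both. Its fold change was -0.27 ± 0.65 for white over green border (95% interval -1.75 to 1.21) and 7.06 ± 0.92 for green border over centre. The latter ran from 6.11 without green border library 1 to 8.86 without centre library 2.

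The regulators were weakly detected. SHN1 (AT1G15360), an AP2 factor that raises wax when overexpressed, had counts of 0 and 1 in the white border, 2 and 1 in the green border and 0 and 3 in the centre. MYB106 (AT3G01140, NOK) had 1.51 and 1.52 CPM in the white border, 2.01 and 0.938 in the green border and 0.8 and 0.343 in the centre, and its white over green border fold change was 0.04 ± 0.68. MYB16 (AT5G15310) had 3.41 and 6.83 CPM in the white border, 2.35 and 4.83 in the green border and 3.11 and 0.893 in the centre, with 0.51 ± 0.70 for the same comparison. Green border over centre was 1.39 ± 0.76 for MYB106 and 0.86 ± 0.73 for MYB16, and 2.15 and 2.06 without centre library 1. The lowest values with 1 library left out were 0.81 for MYB106 and 0.29 for MYB16. The border groups overlapped for both MYB genes. Of the 50-base windows of MYB106, 66.1% also lie in the antisense RNA gene AT3G01142, and since strand use in counting is not given in the sources used here, the level of MYB106 is uncertain.

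In the wild type, 23 of the 30 genes had a positive fold change from centre to border (49.7% of all genes), 16 had one above 1 on the log2 scale (22.6%) and 4 one below -1 (25.6%). The libraries did not overlap in 18 genes, with the border higher in 15 (30.6%) and lower in 3 (27.2%). Nothing is read from these shares, since the genes were chosen with this contrast known.

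All 10 cutin genes had a positive fold change in green border over centre, from 0.16 (GPAT4) to 7.47 (CYP77B1), with a median of 2.59, where the median of all genes was -0.02. The 2 groups did not overlap, with the border higher, in 5 of the 10 (30.6% of all genes, with nothing read from it for the same reason). In white over green border the cutin median was 0.19, and no gene passed.

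LACS2 (AT1G49430), the acyl activase of cutin monomers, had 23.6 and 20.3 CPM in the white border, 15.3 and 13.4 in the green border and 1.16 and 3.16 in the centre. The 3 groups were separate, with white over green border at 0.61 ± 0.50 (95% interval -0.53 to 1.75). Green border over centre was 2.72 ± 0.55 for LACS2, and between 2.24 and 3.72 (without centre library 2) with 1 library left out. HTH (AT1G72970), which is needed to keep organs from fusing, had a green border over centre fold change of 3.74 ± 0.59 and a white over green border fold change of 0.04 ± 0.52. The genes at the low end of the cutin group were BDG1, GPAT4, GPAT8 and CYP86A8. In green border over centre, BDG1 (AT1G64670), an extracellular hydrolase-like protein, stood at 0.38 ± 0.47. The acyltransferase GPAT4 (AT1G01610) stood at 0.16 ± 0.44 and the hydroxylase CYP86A8 (AT2G45970) at 0.75 ± 0.43. The acyltransferase GPAT8 (AT4G00400) stood at 0.39 ± 0.51, and between -0.0023 and 1.12 (without centre library 2) with 1 library left out.

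CYP77B1 (AT1G11600), a cytochrome P450 of the CYP77 family, had 22.7 and 10.3 CPM in the white border, 26.6 and 2.92 in the green border and 0.178 and 0 in the centre. The borders overlapped, and the centre had 2 counts in all. From summed counts (1011 in the green border and 2 in the centre), the ratio of green border to centre was 205, with a 95% interval of 56.6 to 1695 that covers counting error only. The fitted log2 fold change of CYP77B1 was 7.47 ± 1.44, and leaving out 1 library moved it to between 5.20 (without green border library 1) and 12.05 (without centre library 1). DCR (AT5G23940), an acyltransferase of cutin synthesis, had 86.1 and 21 CPM in the white border, 79.8 and 2.57 in the green border and 0.8 and 2.06 in the centre. Its green border library 2 was near the centre level, and white over green border was 0.38 ± 1.19 (95% interval -2.32 to 3.07). AT5G33370, a GDSL-type lipase in the annotation, had 6.67 and 2.24 CPM in the white border, 6.19 and 0.347 in the green border and 0.355 and 0.275 in the centre, and its green border range reached down to the centre libraries. Its fold changes were 0.44 ± 1.04 and, for green border over centre, 3.38 ± 1.28.

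Fatty acid elongation split by member. The condensing enzyme KCS8 (AT2G15090) had 85.3 and 59.4 CPM in the white border, 61.4 and 58.9 in the green border and 1.95 and 3.43 in the centre, with green border over centre at 4.47 ± 0.54. LACS1 (AT2G47240, CER8), which activates very long acyl chains, had 66.0 and 47.6 CPM in the white border, 39.0 and 40.0 in the green border and 7.37 and 4.12 in the centre, with green border over centre at 2.78 ± 0.50. KCS10 (AT2G26250, FIDDLEHEAD), whose loss fuses organs, stood at 1.19 ± 0.52.

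KCS1 (AT1G01120) and KCS6 (AT1G68530) ran the other way. KCS1 had 55.9 and 24.2 CPM in the white border, 25.4 and 31.9 in the green border and 91.2 and 90.7 in the centre, so the centre libraries were above all 4 border libraries. Its green border over centre fold change was -1.67 ± 0.52. KCS6 (CER6), the condensing enzyme for long wax chains, had 55.1 and 43.2 CPM in the white border, 54.0 and 63.0 in the green border and 141 and 195 in the centre. The centre was again above all 4 border libraries, at -1.52 ± 0.47. KCR1 (AT1G67730, -0.23 ± 0.46) and CER10 (AT3G55360, -0.32 ± 0.55), the elongase subunits that all KCS enzymes share, lay near 0. CER10 was 0.55 without centre library 2, and its lowest value with 1 library left out was -0.76. In white over green border the fold changes of these 7 genes ran from -0.25 (KCS6) to 0.52 (LACS1).

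Of the 5 wax genes, CER1 (AT1G02205), of the alkane-forming pair, had 32.8 and 19.7 CPM in the white border, 33.1 and 4.31 in the green border and 6.93 and 2.68 in the centre. Green border library 2 lay between the centre libraries, and white over green border was 0.49 ± 0.83. Its partner CER3 (AT5G57800) had fold changes of 0.27 ± 0.44 in white over green border and 0.76 ± 0.44 in green border over centre. CER4 (AT4G33790) had 0.592 and 0.566 CPM in the white border, 0.401 and 0.243 in the green border and 2.22 and 2.68 in the centre, and the 3 groups were separate. Its white over green border fold change of 0.83 ± 0.66 (95% interval -0.67 to 2.33) had the smallest unadjusted p of the 30 genes, and green border over centre was -2.90 ± 0.69.

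WSD1 (AT5G37300), the wax ester synthase, had 2 and 1.86 CPM in the white border, 1.29 and 0.660 in the green border and 5.51 and 0.275 in the centre. The centre libraries of WSD1 stood 20.05-fold apart and enclosed all border values, so its green border over centre fold change of -1.54 ± 1.07 rests on 1 library. Without centre library 1 it was 1.88. MAH1 (AT1G57750), the midchain alkane hydroxylase, had 3 to 9 counts per library and was not tested.

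In the export group, the transporter ABCG11 (AT1G17840) had 99.0 and 60.2 CPM in the white border, 61.4 and 64.2 in the green border and 22 and 35.5 in the centre. The borders overlapped and both were above the centre, with fold changes of 0.34 ± 0.48 and 1.12 ± 0.48. ABCG12 (AT1G51500, CER5), its wax-exporting partner, had 71.8 and 77.6 CPM in the white border, 44.3 and 57.7 in the green border and 38.5 and 61.0 in the centre. The white border was above all 4 wild-type libraries of ABCG12, with 0.55 ± 0.46, while green border over centre was 0.04 ± 0.46. ABCG32 (AT2G26910), the full-size transporter of cutin precursors, had 53.6 and 65.2 CPM in the white border, 50.3 and 66.6 in the green border and 27.1 and 18.5 in the centre, so its borders were alike in range and above the centre (1.36 ± 0.46). LTPG1 (AT1G27950), a lipid transfer protein tethered to the membrane, stood at -0.09 ± 0.49 in green border over centre. Of the windows of ABCG11, 29.4% also lie in other genes, mostly the antisense gene AT1G17850, so its level is uncertain.

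The cutin branch was then set beside the 11 tested genes of elongation and wax together. In green border over centre, the median was 2.59 for cutin and -0.23 for elongation and wax, where 5 genes were positive and 6 negative. The difference of the medians was 2.82 on the log2 scale. Leaving out 1 library at a time moved it to between 1.18 and 2.99, and it was positive under all 17 alternatives tried. These fits reuse the same libraries and genes chosen with this contrast known, so nothing is read from the sign. The cutin median itself was 0.64 without green border library 1 and 3.16 without green border library 2. The elongation and wax median changed sign with the library set, being 0.17 without green border library 2, 1.20 without centre library 1 and 0.55 without centre library 2.

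**Figure D3:**
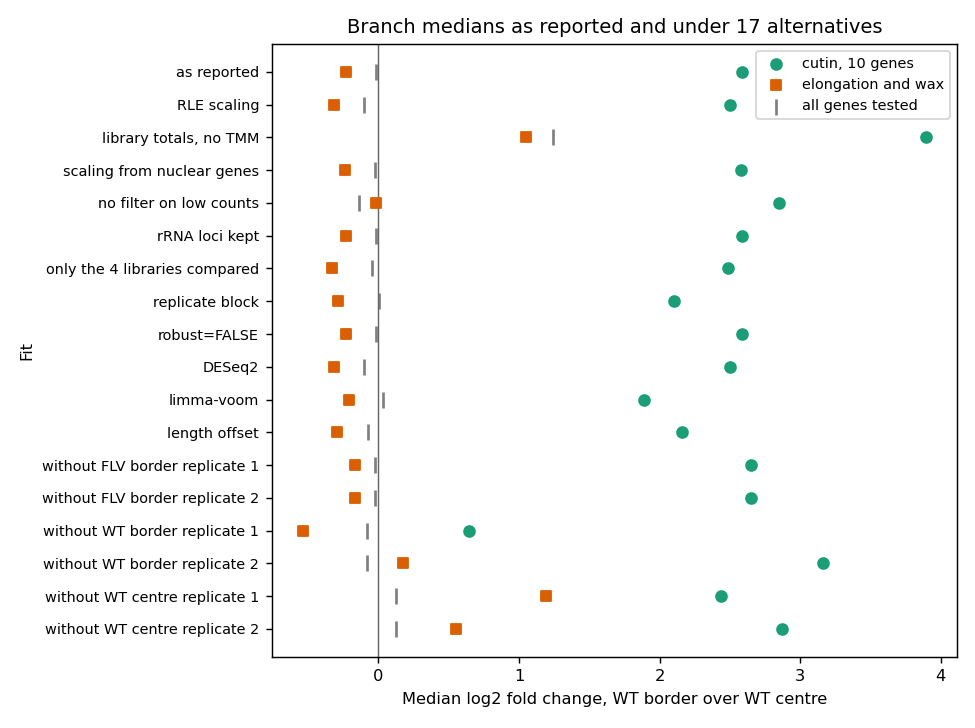
Median log2 fold change in WT border over WT centre of the 10 cutin genes (circles), the elongation and wax genes (squares) and all genes tested (grey ticks), as reported and under 17 alternatives, 1 per line of the vertical axis. The cutin circle lies right of the elongation and wax square in each fit, and they come closest without WT border replicate 1 (0.64 and -0.54) and without WT centre replicate 1 (1.24 apart). The genes were chosen with this contrast known.

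White border over centre shares libraries with the comparisons above. In 23 of the 30 genes the 2 groups were separate, with the mutant border higher in 20 (34.2% of all genes) and lower in 3 (28.1%). The median was 3.00 for cutin and -0.05 for elongation and wax. In white over green border the branch medians were 0.19 and 0.27.

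Libraries of 1 group also differed. In the centre, library 1 was more than 3-fold above library 2 in 11.5% of all genes and in 2 of 28 cuticle genes (7.14%). Some of the cuticle genes differed between the 2 green border libraries more than between groups. Green border library 1 was more than 3-fold above library 2 in 6 of the 30 genes (20%), where 2.78% of all genes were, and these 6 were picked after their values were seen. They are DCR (31.05-fold, 2785 against 74 counts), AT5G33370 (17.8-fold), CYP86A4 (AT1G01600, 12.1-fold), CYP77B1 (9.10-fold), CER1 (7.69-fold) and PDF1 (3.05-fold). In the white border, library 1 was also above library 2 in each of the 6, by 4.11-fold for DCR, 2.97-fold for AT5G33370, 4.31-fold for CYP86A4, 2.21-fold for CYP77B1, 1.66-fold for CER1 and 1.82-fold for PDF1.

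CYP86A4, a fatty acid hydroxylase of the cutin branch, had 14.7 and 3.4 CPM in the white border, 14.3 and 1.18 in the green border and 1.51 and 1.31 in the centre. In the centre DCR was lower in library 1 (0.39-fold). CYP86A4 and the acyltransferase GPAT4 are neighbours on chromosome 1 that end 355 bases apart, yet GPAT4 had a ratio of 1.01 between the same green border libraries. Without green border library 1, white over green border became 4.38 for DCR, 3.67 for AT5G33370, 2.93 for CYP86A4, 2.61 for CER1 and 2.50 for CYP77B1, each with an unadjusted p under 0.05 and none with an adjusted p under 0.05 in edgeR. The comparison of green border and centre depended on the same library. Without green border library 1, green border over centre was 5.20 for CYP77B1 (7.47 ± 1.44 with all libraries), 0.90 for DCR (4.83 ± 1.44 with all), 0.23 for AT5G33370, -0.069 for CER1 (1.97 ± 0.88 with all) and -0.17 for CYP86A4 (2.46 ± 1.09 with all).

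Without green border library 2, the white over green border values of the same 5 genes were all negative, from -0.35 (CER1) to -0.71 (CYP77B1).

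**Figure D4:**
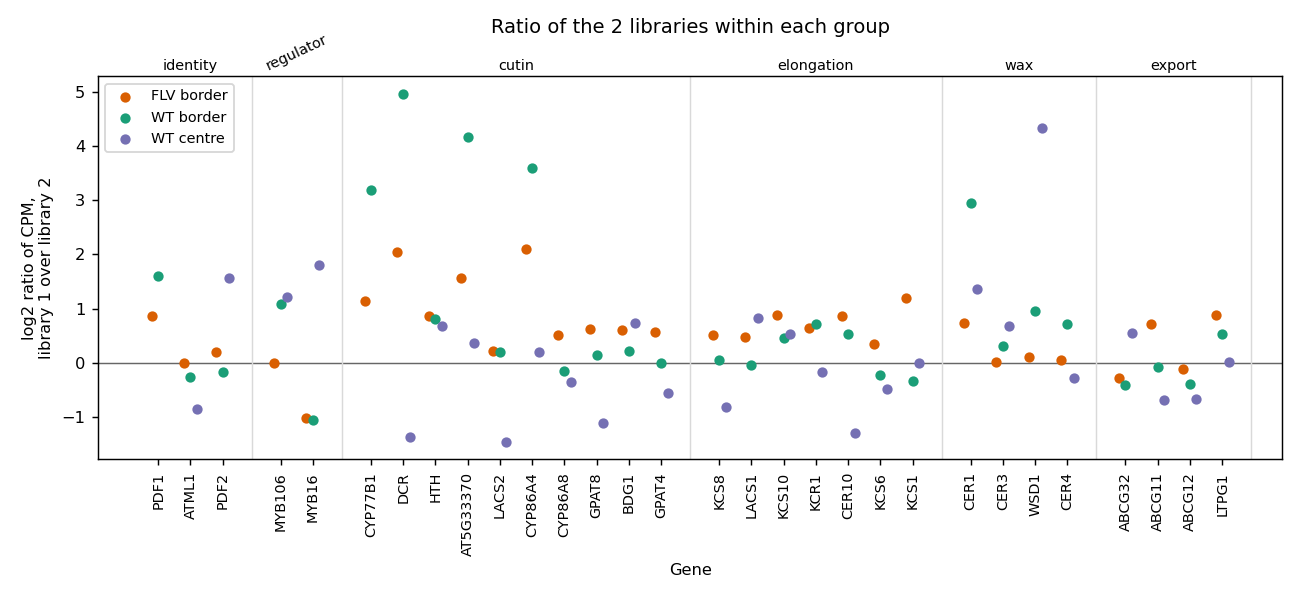
Log2 ratio of CPM in library 1 to library 2 for each gene within FLV border, WT border and WT centre, grouped by role, with 0 marking equal libraries. In WT border, DCR, AT5G33370, CYP86A4, CYP77B1 and CER1 stand far above the other genes, and in WT centre WSD1 does. CYP77B1 and PDF1 have no WT centre point because a library had 3 counts or fewer.

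Other genes of the same pathways were followed as 5 lists of 45 genes, 44 of them tested (9 cutin, 15 wax and elongation, 5 export, 6 of 7 regulators and 9 epidermis identity). In white over green border none of the 44 passed in edgeR, and 2 had an unadjusted p under 0.05 (5.53% of all genes did). The 2 were LACS3, a long-chain acyl activase (1.22 ± 0.53, adjusted p = 0.888, edgeR), and LTP2, a secreted lipid transfer protein (3.99 ± 1.14, adjusted p = 0.568, edgeR). DESeq2 called 1 gene of the export list higher, where it called 120 of all 21852 genes higher. LTP2 had 8.06 and 0.930 CPM in the white border, 0.344 and 0.209 in the green border and 2.04 and 8.93 in the centre, so its libraries of 1 group differed by several-fold. List medians ran from -0.26 (regulators) through -0.15 (wax and elongation), -0.02 (cutin) and 0.27 (epidermis identity) to 0.91 (export). The wax repressor DEWAX (-1.09 ± 0.79), SHN3 (-1.24 ± 0.90), the acyl reductase FAR1 (1.32 ± 0.84), ABCG13 (1.35 ± 0.77), CER26 (0.63 ± 0.58), AT4G24140 (-0.69 ± 0.61), DEK1 (0.48 ± 0.44) and HDG12 (0.43 ± 0.64) were next by p in their lists.

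These lists were also chosen with earlier results of these data known, so nothing is read from their shares above or below. In green border over centre, 5 of the 44 (11.4%) passed and were higher, and 0 were lower, where 6.13% of all genes passed (3.13% higher and 3% lower). These counts depended on the method, since DESeq2 called 9 higher and 5 lower (19.3% of all genes called) and library totals without TMM called 24 higher and 0 lower (35.7% of all genes called). The 5 called by edgeR were LTL1, a GDSL lipase (4.86 ± 0.77, adjusted p = 0.0282, edgeR), the condensing enzyme KCS16 (3.99 ± 0.53), the exosome subunit CER7 (3.03 ± 0.72), the receptor kinase ACR4 (2.68 ± 0.47) and the calpain DEK1 (1.98 ± 0.46). LTL1 had 84.7 and 47.1 CPM in the white border, 75.1 and 50.7 in the green border and 3.55 and 0.824 in the centre. LTL1 and KCS16 alone of the 5 passed with gene length as an offset. None of the 44 passed without green border library 1, when 1 gene of the whole table did, or without green border library 2, when 13 did. The list medians in this comparison were 1.67 for cutin, 0.45 for wax and elongation, -1.12 for export, -0.25 for regulators and 1.14 for epidermis identity. The other cutin genes did not run one way as the 10 described above did, since 5 of 9 were positive. CYP86A2 (-1.69 ± 0.59) and DCF (-1.83 ± 0.50) were lower in both green border libraries than in both centre libraries, and neither passed in edgeR. The summed CPM of this list was 219 to 357 in the white border, 275 to 276 in the green border and 357 to 571 in the centre.

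Some marker lists of other cell types also separated the groups by summed CPM. That of 7 mesophyll markers was 3493 to 8933 in the white border, 14766 to 25049 in the green border and 26662 to 71828 in the centre. CAB2 stood at 75.1 and 2143 CPM in white border libraries 1 and 2, 426 and 6816 in the green border and 201 and 20255 in the centre. LHCB2.1 stood at 66.3 and 1180, 235 and 3881, and 129 and 17870 in the same order. For both genes, library 1 was thus far below library 2 in every group. Without overlap, 5 of the 7 were lower in white over green border (18.7% of all genes) and 3 in green border over centre (27.2%). The summed CPM of 4 mitosis markers was 20.9 to 35.0, 16.2 to 44.6 and 2.06 to 5.6, so the borders overlapped and the centre was below both. The 7 guard cell markers summed to 1849 to 1906, 728 to 1008 and 200 to 239. Without TGG1, a myrosinase, the other 6 summed to 16.2 to 27.7, 12.0 to 24.4 and 10.6 to 15.0 and overlapped, but single markers differed. In white over green border, FAMA, GORK and TGG1 were higher without overlap (19.3% of all genes), while MYB60, KAT1 and SLAC1 had negative fold changes. In green border over centre, FAMA, SLAC1 and TGG1 were higher without overlap (30.6%), and 6 of 7 fold changes were positive.

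Xylem markers summed to 53.0 to 58.4 CPM, 48.6 to 50.1 and 18.3 to 29.8. Phloem markers summed to 130 to 131, 152 to 278 and 250 to 336. In white over green border, 0 of the 6 had a positive fold change (51.6% of all genes), with a median of -0.70. Of the 6, 5 were lower there without overlap (18.7% of all genes). They split in green border over centre. SEOR1 (1.62), APL (0.50) and SUC2 (0.07) were positive there, and SWEET11 (-2.57), SWEET12 (-2.89) and PP2-A1 (-1.42) negative. The summed CPM of trichome markers, most of it from GL2, overlapped throughout, at 31.0 to 42.4, 33.6 to 41.3 and 19.0 to 82.3. Of the 5 tested, TRY alone was lower without overlap in white over green border (-2.25 ± 1.20, 18.7% of all genes). In green border over centre, MYB5 alone was higher without overlap (1.30 ± 1.11, 30.6% of all genes), with 0 and 4 counts in the centre. No marker was at 0 except GL1 in green border library 2 and MYB5 in centre library 1, both of the trichome list.

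In white over green border edgeR called 0 markers, and 4 of 7 mesophyll markers had an unadjusted p under 0.05 (5.53% of all genes). DESeq2 called 3 of those 7 lower, where it called 74 of all 21852 genes lower. The marker lists too were chosen with earlier results of these data known, so nothing is read from the marker counts above or below. In green border over centre edgeR called 2 of 4 mitosis and 1 of 6 xylem markers higher (3.13% of all genes were called higher). Without green border library 1, and without library 2, 0 of these were called, and the xylem call was also lost with the length offset and with the 4 compared libraries alone. The share of these tissue differences in the values of the cuticle genes was not tested.

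Fold changes between leaf positions also ran with gene length. Over all genes, the median log2 fold change in green border over centre was -0.76 for genes of up to 1000 bases and 0.55 for those of over 2000 and up to 3000 bases. The tested cuticle genes had a median length of 1866.5 bases, against 1527 for all genes. With length as an offset, the cutin median was 2.16 and the elongation and wax median -0.29.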

How the data were processed

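Total RNA was depleted of ribosomal RNA and sequenced single end and stranded on an Ion Proton, per the labels' protocols. The authors deposited, per the file headers, a count of reads per gene model from sam2pkm. The column nb_single was used. The build was TAIR10, per the submitters' processing notes. The aligner, the use of strand and the treatment of multiply mapped reads are not given in the sources used here. A total of 15 ribosomal RNA loci were left out.

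Counts were fitted with edgeR 4.0.16 (R 4.3.3, TMM, filterByExpr, glmQLFit with robust estimation) over all 6 libraries with 1 mean per group. That left 3 residual degrees of freedom, and the biological coefficient of variation was 0.456. Benjamini-Hochberg adjustment covered all 21852 genes, with a threshold of 0.05, and the fit was tested on simulated data. DESeq2 1.42.0 and limma 3.58.1 were alternatives, with other scalings, filters, a length offset, a replicate block and each library left out. The genes and lists were chosen with earlier results of these data known. Genes with values for every library are, in each role, those with the 2 largest absolute fold changes in either comparison. In each other list of cuticle and epidermis identity genes, the 2 smallest p in FLV border over WT border were named. LTL1, KCS16, CER7, ACR4, CYP86A2, DCF and the single markers were named, and the library values of CYP86A4 and KCS6 added, after their values were seen. Sequences came from RefSeq TAIR10.1.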

Additional observations from a re-analysis of the deposited data

How the results depend on the processing

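The count of cuticle genes called in FLV border over WT border was 0 under all 17 alternatives. The main fit did not pair libraries of the same number. Over all genes tested, deviations of same-numbered libraries correlated at 0.434 between FLV border and WT border. The correlation was 0.0525 between FLV border and WT centre and 0.101 between WT border and WT centre. Whether libraries of the same number share a factor was not tested. With the replicate block, 0 cuticle genes and 0 of all genes were called in FLV border over WT border (1313 of all genes had an unadjusted p under 0.05), and 1080 of all genes in WT border over WT centre. The cutin median was then 0.46 in FLV border over WT border and 2.1 in WT border over WT centre, with -0.29 for elongation and wax.

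Without TMM, library totals shifted the median of all genes to 0.56 (FLV border over WT border), 1.24 (WT border over WT centre) and 1.85 (FLV border over WT centre). The medians then were 0.81 for all members and 0.81 for elongation and wax in the first, 2.42, 3.90 (cutin) and 1.05 (elongation and wax) in the next, and 3.14, 4.83 and 1.76 in the last. PDF1 (0.25), GPAT4 (0.24), KCS6 (0.29) and CER10 (0.34) changed sign with them in FLV border over WT border. With limma-voom, the cutin median was 1.89 and the difference of branches 2.105 in WT border over WT centre, and in FLV border over WT centre elongation and wax had 0.66 and the difference 2.22. ABCG32 was -0.00146 with RLE scaling, -0.00143 with DESeq2 and -0.052 with the length offset, where HTH was -0.040. The cause of these changes was not tested.

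Leaving out 1 library at a time, each median had a lowest and a highest value. In FLV border over WT border these were -0.50 and 0.61 for cutin, -0.03 and 0.54 for elongation and wax, and -0.13 and 0.54 for all members. In WT border over WT centre they were 0.64 and 3.16 for cutin, -0.54 and 1.20 for elongation and wax, 0.74 and 1.8 for all members, and 1.18 and 2.99 for the difference of branches. In FLV border over WT centre they were 2.1 and 3.47 for cutin, then -0.35 and 1.44, 1.21 and 1.95, and 1.38 and 3.16 in the same order. In FLV border over WT border, 21 of the genes changed sign under some alternative, GPAT4 and KCS6 with library totals alone. The ranges of the others with 1 library left out were -1.20 to 2.93 for CYP86A4, -0.71 to 2.50 for CYP77B1, -0.99 to 4.38 for DCR, -0.56 to 3.67 for AT5G33370 and -0.35 to 2.61 for CER1. They were -0.26 to 0.39 for GPAT8, -0.24 to 0.38 for BDG1, -0.47 to 0.50 for HTH, -0.25 to 0.97 for KCS1, -0.027 to 0.51 for KCS8, -0.35 to 0.54 for KCS10, -0.19 to 0.59 for KCR1 and -0.70 to 0.18 for CER10. For ABCG11 they were -0.069 to 0.66, for ABCG32 -0.17 to 0.22, for LTPG1 -0.25 to 0.65, for PDF1 -0.88 to 0.75, for MYB106 -0.42 to 0.69 and for MYB16 -0.070 to 1.11. The lone library left in a group was assumed to vary like the other groups.

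Depth limits CYP77B1, PDF1, SHN1, MAH1 and CER4 in single groups. With 2 libraries a group, the intervals of FLV border over WT border leave doublings and halvings inside for many genes.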
